A study of Mus musculus with 12 samples.

Results

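The genes followed here encode the Rab and Arf GTPases, the vesicle coats and adaptors, the sorting nexins, and the Sec and Vps proteins of secretion and endosomal sorting. Members were all probe sets with a single gene symbol in the platform annotation whose symbol begins with Rab, Arf, Arl, Snx, Sec or Vps and a digit, with Ap1, Ap2 or Ap3 followed by a subunit letter and a digit, or with Copa, Copb, Cope, Copg or Copz. This gave 169 probe sets of the 12422 tested, which stand for 126 of 8251 genes. One probe set measured 89 of the genes, 2 measured 31 and 3 measured 6. The choice by name also brought in genes with other roles: Sec1, a fucosyltransferase gene, Vps72, a chromatin protein, Sec14l1 and Sec14l2, which bind lipids, and Rab10os and Rab26os, transcripts of the strand opposite a Rab gene. A gene and its opposite-strand partner may share sequence, so the values of those last transcripts are uncertain.

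All RNA came from a single adult mouse of the strain NMR-1, with no genetic change or treatment named in the labels. In the groups liver 1X, cortex 1X and cerebellum 1X, 5 µg of RNA went through the standard Affymetrix procedure, in which RNA is copied by 1 linear amplification, on 1 array per tissue. In the groups liver 3X, cortex 3X and cerebellum 3X, 1 ng went through 3 linear amplifications with the RiboAmp HS kit, on 3 arrays per tissue that are technical replicates. The amount of RNA, the kit and the count of amplifications differ together between these procedures and cannot be told apart, and p-values cover only the spread between these 12 arrays, not between mice. The series was made to compare profiles from the standard and the small-sample procedure.

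Membrane traffic moves proteins between organelles in vesicles. Small GTPases of the Rab and Arf families recruit coats and tethers when bound to GTP, the COPII coat carries cargo out of the endoplasmic reticulum, the COPI coat carries it back from the Golgi, and the AP adaptors choose cargo at the Golgi, the plasma membrane and endosomes. Retromer and sorting nexins recycle receptors from endosomes, the ESCRT proteins sort them towards lysosomes, and the Sec61 channel admits new secretory proteins to the endoplasmic reticulum. Hepatocytes secrete most plasma proteins through this route, whereas neurons use it for synaptic vesicles and transport along axons.

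The signals are log2 values, and every difference below is on the log2 scale with its standard error (SE). The tissue labels fitted their markers: the mean over 6 hepatocyte genes was 10.2 to 11.1 on the 3X liver arrays and 4.56 to 4.74 on the 3X brain arrays, and that over 6 neuronal genes was 4.74 to 5.07 in liver and 5.82 to 6.34 in brain. On the 1X arrays the neuronal means of 4.11 (liver), 7.40 (cortex) and 7.21 (cerebellum) lay farther apart than at 3X. A list of 4 kidney genes had a mean of 5.29 to 5.35 on the 3X cerebellum arrays and 6.53 on the 1X cerebellum array, against 4.34 to 4.51 and 4.26 in cortex. Its part in differences between the brain regions was not tested. Over the 169 members, replicate 3X arrays of a tissue correlated with a Pearson's r of 0.984 to 0.995 (9 pairs), and 3X arrays correlated with their tissue's 1X array at 0.913 to 0.941 (9 pairs). The last range overlapped those of 1X with 3X arrays of different tissues. These were 0.911 to 0.921 between the brain regions (6 pairs) and 0.885 to 0.922 between liver and brain (12 pairs). The members had a median SD over the replicates of 0.137 (liver), 0.111 (cortex) and 0.104 (cerebellum). Liver replicate 3 lay more than 0.5 above the mean of the other liver replicates for 14 members, against 2 for replicate 1 and 1 for replicate 2. RMA, the method behind the signals, gives no detection call, so a difference that involves a signal near or below the array median of about 3.46 is no measured ratio of RNA.

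The start regions of members are shown first, so that their sequence can be read beside the values below. RefSeq (assembly GRCm38.p6) gave 130 regions of 300 bases, from 250 before to 50 after a transcription start, for 108 of the 126 genes. On both strands, the GC box GGGCGG was found in 69.2% of the member regions and 35.7% of all 32851 regions of this length. The TATA box TATAAA was found in 3.85% against 13.6%, the E-box CACGTG in 14.6% against 7.15%, the CCAAT box CCAAT in 35.4% against 37.4% and the site TGACGTCA in 3.08% against 1.79%. A match describes the letters only. The regions of Arl3 and Sec61a2, lower in liver, and of Sec14l2, higher in liver, follow 5′ to 3′ along the gene's strand, with GC, CCAAT and E-box matches in capitals. Arl3 holds 6 GC boxes, 1 CCAAT box and an E-box that overlaps a GC box, Sec61a2 holds 5 GC boxes, and Sec14l2 holds 1 GC box and 1 CCAAT box. None of the 3 regions has the TATA box letters. Arl3 lies at chr19:46573133-46573432, Sec61a2 at chr2:5895383-5895682 and Sec14l2 at chr11:4118680-4118979, all on the minus strand.
Arl3: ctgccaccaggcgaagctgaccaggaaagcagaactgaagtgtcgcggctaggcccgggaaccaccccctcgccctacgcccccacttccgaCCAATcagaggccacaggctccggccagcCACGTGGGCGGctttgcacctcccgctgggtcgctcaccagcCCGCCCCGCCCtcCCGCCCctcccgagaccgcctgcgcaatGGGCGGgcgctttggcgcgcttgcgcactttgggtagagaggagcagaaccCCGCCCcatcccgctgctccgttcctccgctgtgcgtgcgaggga
Sec61a2: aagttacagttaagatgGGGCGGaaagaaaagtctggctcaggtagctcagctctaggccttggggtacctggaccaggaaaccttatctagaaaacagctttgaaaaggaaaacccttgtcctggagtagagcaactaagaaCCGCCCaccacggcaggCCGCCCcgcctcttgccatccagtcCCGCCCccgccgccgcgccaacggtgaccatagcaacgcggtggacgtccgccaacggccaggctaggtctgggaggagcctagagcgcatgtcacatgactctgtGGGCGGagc
Sec14l2: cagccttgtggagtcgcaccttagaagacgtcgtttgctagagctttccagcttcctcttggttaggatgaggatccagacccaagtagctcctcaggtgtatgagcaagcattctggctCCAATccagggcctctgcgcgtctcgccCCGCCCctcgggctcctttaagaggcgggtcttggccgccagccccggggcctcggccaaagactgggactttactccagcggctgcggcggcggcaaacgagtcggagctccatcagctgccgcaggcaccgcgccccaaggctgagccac

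Between liver and brain, the members that passed the test were mostly lower in liver. On the 3X arrays, 33 of 169 probe sets (32 genes) were lower and 8 (7 genes) higher in liver than the mean of cortex and cerebellum (limma, 3 liver against 6 brain arrays, adjusted p under 0.05 over all probe sets). These are 19.5% and 4.73% of the members, beside a background of 12.3% lower and 8.17% higher among all 12422 probe sets. The median difference was -0.07 for the members and 0.01 for all probe sets. Of the called members, 5 lower and 2 higher ones differed at least 2-fold. Called or not, 7 of the 169 members and 683 of all 12422 probe sets reached 2-fold. The liver and brain arrays did not overlap for 25 of the 33 lower members (75.8%) and all 8 higher ones, against 80.7% and 88.8% of all probe sets called lower and higher. Against each brain region on its own, 20 of the 33 (60.6%) and 4 of the 8 were also called, against 60.8% and 61.4%. Read beside these shares of the array, neither count is particular to the members. In bulk RNA, fewer cells of a type and less RNA per cell cannot be told apart.

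**Figure D1:**
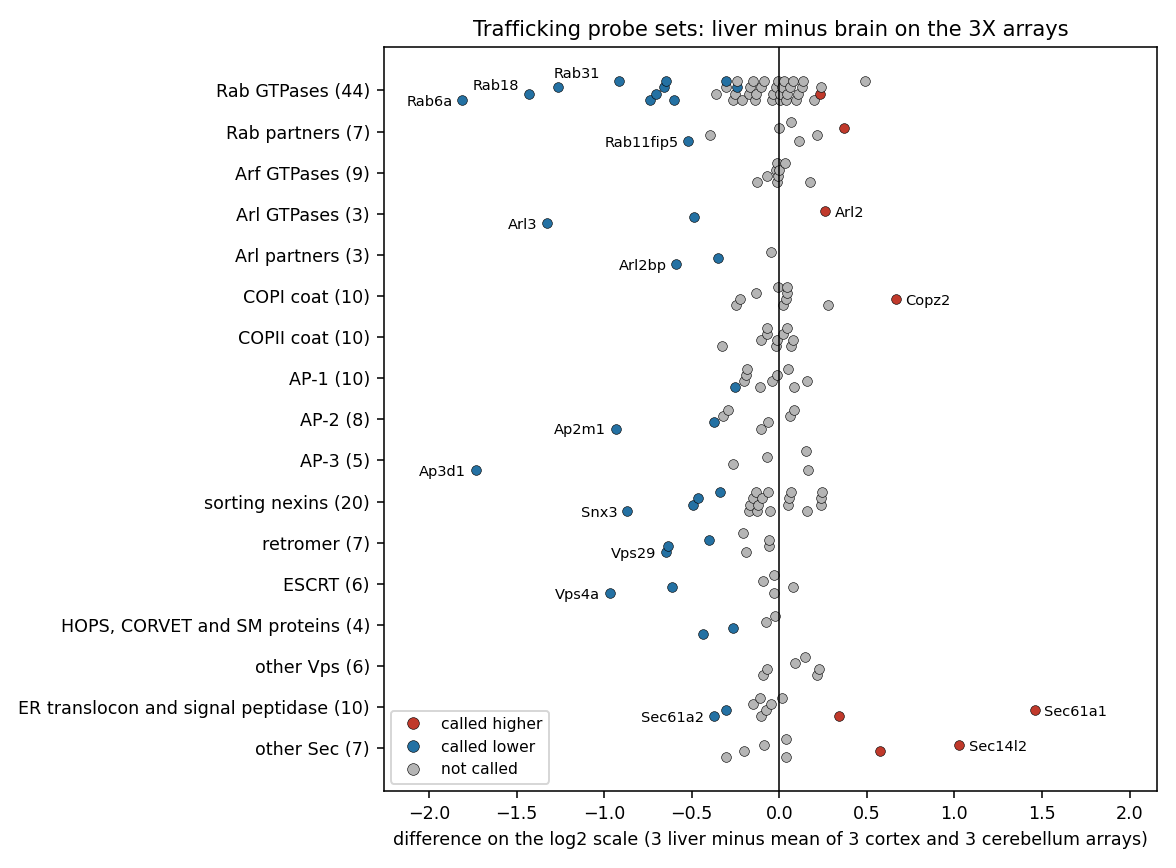
Difference between liver and brain on the 3X arrays (log2, horizontal axis) for the 169 member probe sets, each a point, by role class with the number of probe sets in brackets. Red and blue points passed the test as higher or lower in liver. Blue points reach from Rab6a (-1.81) and Ap3d1 (-1.73) towards 0, the COPII and Arf rows hold no coloured point, and Sec61a1 (1.46) lies farthest to the right.

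Among the 44 probe sets of Rab GTPases, which mark organelle identity, 11 were lower in liver and 1 was higher. Rab6a, which acts in traffic at the Golgi, had the largest difference. Its probe set 98927_at gave 4.41, 4.64 and 4.84 on the liver arrays, 7.20, 6.09 and 6.76 on the cortex arrays and 6.38, 6.34 and 5.87 on the cerebellum arrays. All liver values lay below all brain values, by -1.81 ± 0.22 (adjusted p = 0.000146). The other Rab6a probe set, 97222_at, gave 6.44, 6.60 and 6.33 in liver, 6.15, 6.36 and 6.47 in cortex and 5.94, 6.30 and 6.32 in cerebellum. Its groups overlapped and its difference of 0.20 ± 0.11 was not called (adjusted p = 0.268), so the finding for Rab6a holds for 1 of its 2 probe sets.

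Rab18, linked to lipid droplets, gave 1.25, 1.87 and 2.87 in liver, 3.53, 3.01 and 3.67 in cortex and 3.22, 3.41 and 3.71 in cerebellum. The liver values were the lowest but spread over 1.62, and the difference was -1.43 ± 0.29 (adjusted p = 0.00567). With an SD of 0.816 in liver, the pooled SE understates the spread there. Rab31, a GTPase of the Golgi and endosomes, was read at 2.11, 2.21 and 2.16 in liver and 3.09 to 3.69 in brain by probe set 161380_f_at, a difference of -1.27 ± 0.09. Its second probe set, 96811_at, differed by 0.08 ± 0.07 and was not called. Other Rab GTPases lower in liver were Rab33a (-0.74 ± 0.11), Rab12 (-0.70 ± 0.10) and Rab33b by 97058_f_at (-0.66 ± 0.09). The other Rab33b probe set, 103062_at, differed by -0.02 and was not called. Rab14, which acts between Golgi and endosomes, was lower by 97301_at (-0.92 ± 0.25, adjusted p = 0.0251), but its liver values of 4.46, 4.93 and 5.88 overlapped those of brain (5.77 to 6.19), and its other probe sets gave 0.11 and -0.09. Rab7 of late endosomes was lower by both its probe sets, by -0.65 ± 0.20 and -0.30 ± 0.07. For the first, 95785_s_at, the liver arrays spanned 0.75 upwards from 1.51 and overlapped those of brain, the lowest of which was 2.13. The 3X signals of the 2 probe sets reached at most 3.33 and 3.25, below the array median. Rab25 of epithelial recycling endosomes, at 3.14, 3.22 and 3.10 in liver and 2.83 to 3.02 in brain, was the Rab GTPase higher in liver (0.23 ± 0.07, adjusted p = 0.0381). These signals too lay below the array median. The 2 Rab3a probe sets, for the GTPase of synaptic vesicles, differed by -0.25 ± 0.11 and 0.02 ± 0.07, and neither was called. Their 3X signals of 2.94 to 3.57 and 2.55 to 2.74 lay near or below the array median. They therefore cannot show whether Rab3a RNA differs between liver and brain.

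The 3 Arl GTPases, relatives of Arf, all passed the test. Arl3, which delivers lipid-modified proteins to cilia, gave 1.80, 1.74 and 1.65 in liver, 3.04, 2.98 and 3.15 in cortex and 3.09, 3.16 and 2.90 in cerebellum. The groups were far apart relative to their spread, at -1.33 ± 0.08 (adjusted p = 8.37e-07), the lowest adjusted p among members here. All these 3X signals, at most 3.16, lay below the array median, so the size of the difference is no measured ratio of RNA. Arl1 of the Golgi was lower in liver by -0.49 ± 0.11. Arl2, which takes part in tubulin folding, was higher in liver by 0.26 ± 0.08 (adjusted p = 0.0323), with values of 6.07, 5.87 and 6.10 against 5.57 to 5.86 in brain. The 1X arrays ran the other way for Arl2, at 6.13 in liver, 6.77 in cortex and 7.21 in cerebellum. Its binding partner Arl2bp was lower in liver (-0.59 ± 0.11). None of the 9 Arf probe sets was called, and their differences lay between -0.13 and 0.18.

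Adaptor complexes contributed 4 lower members and no higher one. Ap3d1, the delta subunit of the AP-3 adaptor for lysosome-related organelles and synaptic vesicles, gave 4.51, 4.69 and 5.18 in liver, 6.60, 6.37 and 6.76 in cortex and 6.27, 6.35 and 6.81 in cerebellum. Its liver values stayed below every brain value (-1.73 ± 0.17, adjusted p = 2.79e-05). The other 4 AP-3 probe sets, for Ap3b1, Ap3m1, Ap3s1 and Ap3s2, differed by -0.27 to 0.16 and were not called. In the AP-2 adaptor of clathrin-mediated uptake, Ap2m1 was lower by 93362_at (-0.93 ± 0.08, with 2.86, 3.07 and 3.07 in liver and 3.74 to 4.10 in brain) and Ap2a1 by -0.37 ± 0.07. The other Ap2m1 probe set, 162442_r_at, differed by -0.29 and was not called, nor were the 2 Ap2a2, 1 Ap2b1 and 2 Ap2s1 probe sets. AP-1, the adaptor of the trans-Golgi network, had 1 called probe set of 10, for Ap1s1 (-0.25 ± 0.07).

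The called sorting nexin, retromer and ESCRT genes were all lower in liver. Snx3, a sorting nexin that works with retromer, gave 5.51, 5.73 and 6.34 in liver, 6.44, 6.36 and 6.74 in cortex and 6.54, 6.95 and 7.34 in cerebellum. The highest liver value lay just under the lowest brain value, and the difference was -0.87 ± 0.20 (adjusted p = 0.0113). It was no longer called without liver replicate 1 (adjusted p = 0.0561) or liver replicate 2 (0.0508). Snx6, Snx17 and Snx21 were also lower, with differences of -0.49 ± 0.16, -0.46 ± 0.08 and -0.34 ± 0.10, and the other 16 sorting nexin probe sets were not called. Among these 16 was a second Snx17 probe set, at 0.24. Of 7 retromer probe sets, those of Vps29 (-0.65 ± 0.10), Vps26b (-0.40 ± 0.07) and Vps26c (162486_f_at, -0.63 ± 0.17) were lower. Vps26c belongs to the related retriever complex, and its other probe set, 101104_at, differed by -0.19 and was not called. Vps4a, the ATPase that takes ESCRT filaments apart, gave 3.74, 3.74 and 3.76 in liver against 4.48 to 4.96 in brain (-0.97 ± 0.11, adjusted p = 8.92e-05). Its paralog Vps4b differed by -0.03 ± 0.12. Vps28 of ESCRT-I (-0.61 ± 0.17) and, in the group of tethers and SM proteins, Vps41 (-0.44 ± 0.12) and Vps45 by 162110_f_at (-0.27 ± 0.08) completed the list. The other Vps45 probe set, 94404_at, differed by -0.08 and was not called.

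The members higher in liver were led by the entry gate of the secretory route. Sec61a1, the channel subunit of the translocon, gave 9.14, 9.05 and 9.75 in liver, 7.89, 7.62 and 7.89 in cortex and 7.68, 7.95 and 8.10 in cerebellum by probe set 160291_at. The liver arrays lay well above all others, by 1.46 ± 0.16 (adjusted p = 6.76e-05). A second probe set, 97882_at, differed by -0.11 ± 0.08 and was not called, with 2.95, 2.97 and 2.81 in liver and 2.94 to 3.22 in brain. The paralog Sec61a2 ran in the opposite direction, with 5.46, 5.63 and 5.48 in liver, 5.95, 5.91 and 6.08 in cortex and 5.73, 5.88 and 5.81 in cerebellum, a difference of -0.37 ± 0.07 (adjusted p = 0.00494). Sec11c, a catalytic subunit of signal peptidase, was higher in liver by 0.34 ± 0.08, and Sec62, which assists the channel, was lower by 160136_r_at (-0.31 ± 0.08) and not called by its other 2 probe sets.

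Sec14l2, a lipid-binding protein that takes up tocopherol and squalene, was higher by both probe sets. The first, 96758_s_at, gave 5.25, 5.19 and 5.16 in liver, 4.08, 4.28 and 4.21 in cortex and 4.15, 4.06 and 4.29 in cerebellum (1.03 ± 0.08, adjusted p = 4.72e-06), and the second, 96759_r_at, differed by 0.58 ± 0.10. Copz2, an isoform of the zeta subunit of COPI, gave 5.27, 5.41 and 5.11 in liver and 4.41 to 4.86 in brain (0.66 ± 0.09, adjusted p = 0.000474). It was the called member among 10 COPI probe sets, and Copz1, the other isoform, differed by 0.28 ± 0.12 and 0.04 ± 0.10. Rab3ip, an exchange factor that activates Rab GTPases, was higher by 95539_at (0.37 ± 0.09) and differed by 0.11 ± 0.14 by its other probe set. Of the 10 COPII probe sets none was called, and the largest difference was that of Sec23ip, a partner of the coat, at -0.33 ± 0.11 (adjusted p = 0.0615).

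**Figure D2:**
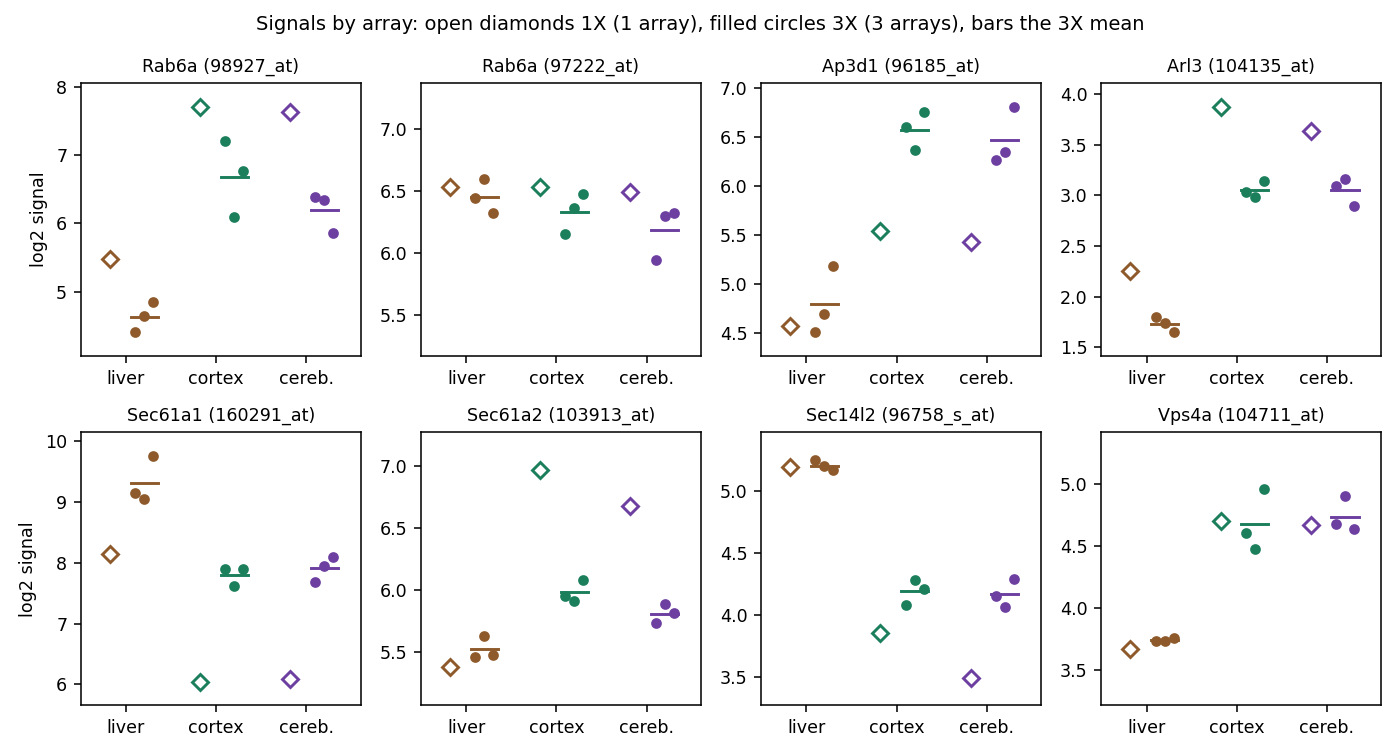
Signal (log2) on each array for 8 probe sets, by tissue: open diamonds are the 1X array, filled circles the 3X replicates and bars the 3X mean; vertical scales differ between panels. In Rab6a (98927_at), Ap3d1, Arl3 and Vps4a the 3X liver circles lie below all brain circles, in Sec61a1 and Sec14l2 above them, and in Rab6a (97222_at) the tissues overlap.

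Single arrays of every tissue moved these counts. Without cortex replicate 1 or cerebellum replicate 3, 24 members were lower in place of 33, and without liver replicate 3, 35 were lower. Without liver replicate 1, 5 members were higher in place of 8, Arl2, Sec11c and Rab25 being the ones lost, and without liver replicate 2, 21 were lower in place of 33, with Rab14, Snx3, Snx6, Vps26c, Vps28 and Vps41 among those lost.

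The members, like the whole array, differed less between liver and brain at 3X than at 1X. The SD of the 169 differences was 0.651 at 1X, with 1 array per tissue and no test, and 0.390 at 3X. Over all 12422 probe sets the SD was 1.02 at 1X and 0.631 at 3X, so the narrowing was not particular to the members. Pearson's r between the 1X and 3X differences was 0.570 for the members (0.790 over all 12422 probe sets, points that share their arrays). At 1X, 23 members differed at least 2-fold, 17 lower and 6 higher in liver. All 23 differences were smaller at 3X (1526 of 1638 among all probe sets), which choosing them by their size on single arrays favours. Of the 23, 19 kept their sign and 9 were under 0.3 in size, against 1532 and 473 of the 1638. At 3X, 4 (17.4%) still reached 2-fold, against 541 (33.0%) among all probe sets. Those 4 were Rab6a (98927_at), Arl3, Sec61a1 (160291_at) and Sec14l2 (96758_s_at). At the other extreme, the 1X difference of -2.65 for Arf3 (93700_at) became 0.18, that of -2.07 for Copg1 (94427_at) became -0.13, and that of 1.31 for Sec61b became -0.04. All 33 members called lower at 3X were also lower at 1X, and 5 of the 8 called higher were higher at 1X. Arl2, Rab3ip (95539_at) and Sec11c were not. The same counts among all probe sets called at 3X were not made, so this agreement in sign is not read as particular to the members. Called or not, 112 of the 169 members and 6691 of all 12422 probe sets were lower in liver at 1X. No member had opposite differences of at least 2-fold. In the reverse direction, 7 members differed at least 2-fold at 3X, and 3 of them did not at 1X: Ap3d1 (-0.92 at 1X), Rab31 by 161380_f_at (-0.41) and Rab18 (-0.16). Neuronal markers also lay closer together at 3X: Snap25, a synaptic SNARE, read 2.99 in liver and 11.24 and 11.43 in cortex and cerebellum at 1X, and 5.26 to 7.11 in liver and 7.27 to 7.86 in brain at 3X. The part of this shift in the members' smaller differences was not tested.

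**Figure D3:**
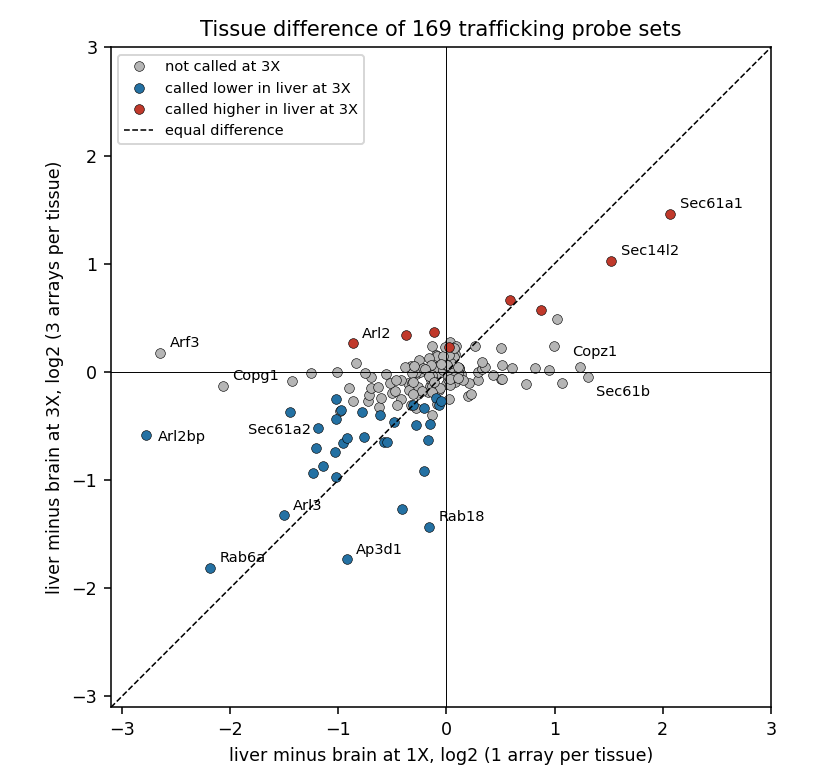
Liver minus brain difference (log2) at 1X (horizontal, 1 array per tissue) against the same difference at 3X (vertical, 3 arrays per tissue) for 169 member probe sets; the dashed line marks equal differences. Points at the left edge such as Arl2bp (-2.78 at 1X, -0.59 at 3X) and Arf3 (-2.65 and 0.18) lie near the horizontal zero line, while Rab6a (-2.18 and -1.81) and Arl3 (-1.50 and -1.33) lie close to the dashed line.

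Between cortex and cerebellum, no member passed the test at 3X (limma, 3 against 3 arrays), beside a background of 0.435% of all probe sets higher and 0.628% lower in cortex. At an unadjusted p under 0.05 there were 15 members (8.88%), and 1068 of all probe sets (8.60%). The largest difference was that of Rab26os, the opposite-strand transcript, with 5.59, 5.14 and 5.47 in cortex and 5.92, 6.28 and 6.25 in cerebellum (-0.75 ± 0.18, adjusted p = 0.0943). Its arrays did not overlap. Next came Vps26c by 162486_f_at (-0.59 ± 0.20, adjusted p = 0.327), Rab7 by 95785_s_at (0.50 ± 0.23, 0.598) and Rab6a by 98927_at (0.49 ± 0.25, 0.668). In a fit of the 6 brain arrays alone, Rab26os (adjusted p = 0.0191) and Vps26c (0.039) were called; in the joint fit Rab26os was called without liver replicate 1 (0.0385) and Vps26c without liver replicate 3 (0.0356). At 1X, Arf3 differed at least 2-fold between the regions, higher in cortex by 1.74 (93700_at) and 1.15 (96587_at), and at 3X these differences were 0.05 ± 0.15 and 0.17 ± 0.08.

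Between procedures, coat and GTPase genes were lower on the 3X than on the 1X arrays more often than higher. In a model with tissue over all 12 arrays, 66 members (39.1%, 60 genes) were lower and 41 (24.3%, 37 genes) higher at 3X, beside a background of 19.5% lower and 37.5% higher among all probe sets. The median was -0.13 for the members and 0.12 for all probe sets, so the members' median lay below that of the array. Under quantile normalization of the arrays these medians were -0.12 and 0.08, and under median centring -0.11 and 0.14. At least 2-fold lower were 21 members and at least 2-fold higher 3, with the shares by signal level given below. The sign was the same in all 3 tissues for 62 of the 66 (93.9%) and 40 of the 41 (97.6%), near the 90.2% and 99.1% of all probe sets called lower and higher. The 1X and 3X arrays did not overlap for 42 of the 66 (63.6%) and 25 of the 41, against 52.6% and 69.0%. Whether all 12 arrays were summarised in a single RMA run is not stated in the sources used here, and every difference between procedures carries that limit. Among the 66 members in the brightest of 3 equal classes of all probe sets by mean signal, 14 (21.2%) were at least 2-fold lower, against 9.51% of all probe sets in that class. In the lowest and middle classes the shares were 4.26% and 8.93% of the members, against 2.39% and 7.29%. At least 2-fold higher, from the lowest class to the brightest, were 0.0%, 1.79% and 3.03% of the members, against 1.28%, 2.08% and 3.26%.

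**Figure D4:**
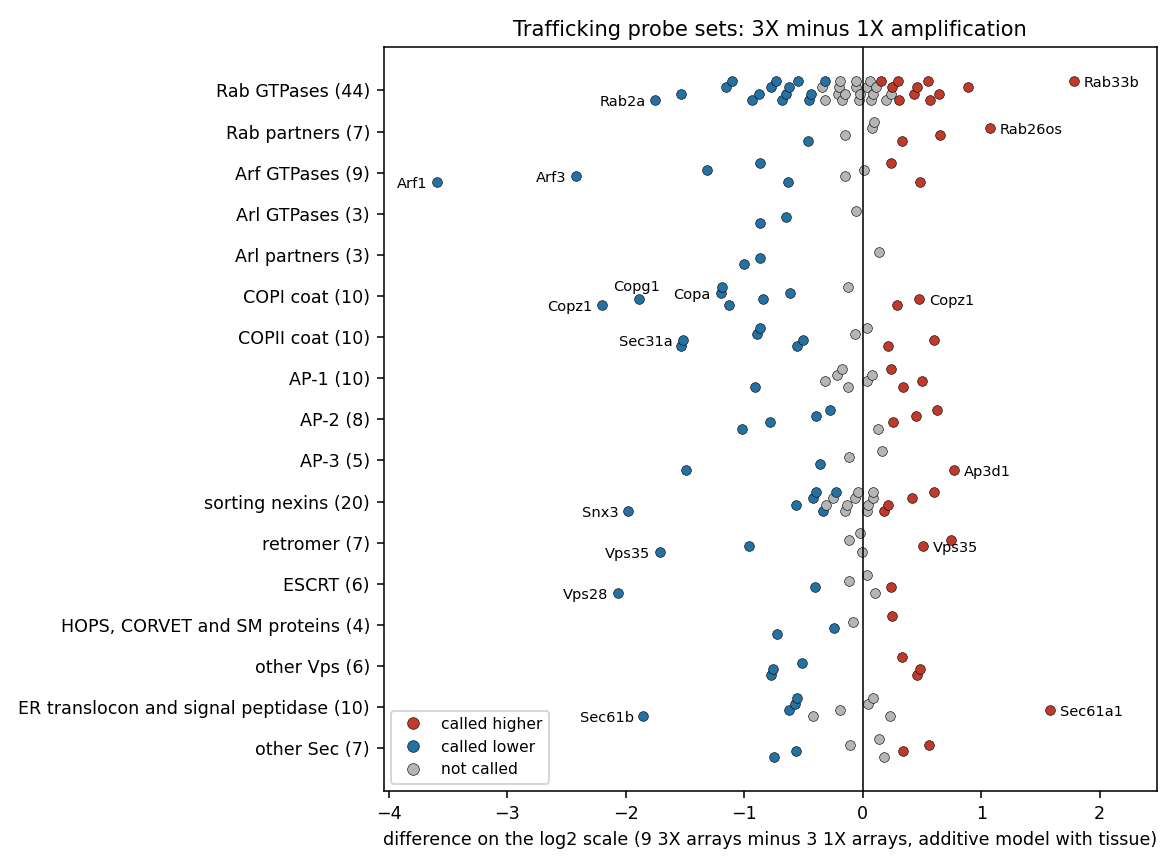
Difference between the 3X and 1X arrays (log2, horizontal axis) for the 169 member probe sets by role class, with the number of probe sets in brackets; red points were called higher and blue points lower at 3X. The long blue tail runs to Arf1 (-3.59), the COPI and COPII rows hold 13 blue and 4 red points, and Copz1 and Vps35 appear on both sides.

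The Arf GTPases, which recruit COPI and clathrin adaptors, held the largest differences. Arf1 gave 13.43 in liver, 14.46 in cortex and 13.91 in cerebellum at 1X. At 3X it gave 10.43, 10.10 and 10.46 in liver, 10.46, 10.30 and 10.41 in cortex, and 10.39, 10.18 and 10.30 in cerebellum. The highest 3X array lay 2.97 below the lowest 1X array, and the difference was -3.59 ± 0.15 (adjusted p = 4.92e-08), the lowest adjusted p among members. Arf3 was lower by 93700_at (-2.42 ± 0.47) and 96587_at (-0.63 ± 0.22), and by the remaining probe set not called (-0.15 ± 0.12). Arf4 (-1.31 ± 0.13) and Arf5 (-0.87 ± 0.09) were lower, whereas Arf2 (0.49 ± 0.06) and 1 of the Arf6 probe sets (0.24 ± 0.09) were higher at 3X.

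Both coats of the early secretory route were mostly lower at 3X. Of 10 COPI probe sets 7 were lower and 2 higher, with a median of -0.99, and of 10 COPII probe sets 6 were lower and 2 higher, with a median of -0.53. Copz1 gave 11.23 in liver, 10.12 in cortex and 9.89 in cerebellum at 1X by 95149_at, and 8.04 to 8.44 on the 9 3X arrays (-2.20 ± 0.20, adjusted p = 9.62e-06). The lowest 1X array stood 1.45 above the highest 3X array. By 161319_at the same gene gave 7.16 to 7.20 at 1X and 7.30 to 8.03 at 3X, higher by 0.48 ± 0.11. Copg1, the gamma subunit, was lower by both probe sets (-1.89 ± 0.29 and -1.19 ± 0.09), as were Copa (-1.20 ± 0.08), Cope (-1.13 ± 0.17) and Copb1 (-0.84 ± 0.10). In COPII, Sec23a was lower by both probe sets (-1.53 ± 0.12 and -0.89 ± 0.12), and so were the outer coat subunits Sec31a (-1.52 ± 0.08) and Sec13 (-0.87 ± 0.12). Sec24b, a cargo-binding subunit, was higher (0.22 ± 0.05).

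Of the 44 Rab GTPase probe sets, 15 were lower and 11 higher at 3X. Rab2a, which acts between endoplasmic reticulum and Golgi, gave 6.81, 7.30 and 7.52 in liver, cortex and cerebellum at 1X and 5.20 to 5.68 at 3X by 94031_at (-1.75 ± 0.10, adjusted p = 5.23e-07). Rab9 of late endosomes was lower by -1.54 ± 0.30, with 7.31, 6.10 and 6.49 at 1X. Its 3X values were 5.01, 5.05 and 6.21 in liver, 4.47, 4.59 and 5.63 in cortex and 4.67, 4.98 and 5.26 in cerebellum, and the value of 6.21 lay above the 1X cortex array. In the other direction, Rab33b was higher by 97058_f_at (1.78 ± 0.09, from 1.78, 2.70 and 2.77 at 1X to 3.71 to 4.75 at 3X) and by 103062_at (0.30 ± 0.10). Rab31 by 161380_f_at (0.89 ± 0.15), Rab5c of early endosomes (0.65 ± 0.07) and, among partners, Rab26os (1.08 ± 0.16) and Rab3ip by 161209_r_at (0.65 ± 0.14) were also higher. No called Arl GTPase was higher, and Arl2 (-0.87 ± 0.18) and Arl3 (-0.65 ± 0.08) were lower.

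Sorting and translocon genes had members at both ends. Vps28 gave 7.19, 7.92 and 8.29 at 1X and 5.01 to 6.31 at 3X (-2.07 ± 0.16), and Snx3 gave 7.66, 8.76 and 8.83 and then 5.51 to 7.34 (-1.98 ± 0.19). The groups did not overlap for either gene. The retromer core subunit Vps35 was lower by 92640_at (-1.71 ± 0.07) and higher by 162393_at (0.51 ± 0.08). Sec61b, the small beta subunit of the translocon, was lower by -1.85 ± 0.21, and Sec61a1 was higher by 160291_at, at 8.14, 6.05 and 6.10 at 1X and 7.62 to 9.75 at 3X (1.58 ± 0.17, adjusted p = 2.93e-05). The liver array at 1X (8.14) lay just above the highest 3X brain array (8.10) and below all 3X liver arrays. The AP-1, AP-2 and AP-3 adaptors had 7 probe sets called higher and 7 called lower at 3X. Among them, Ap3s1 was lower (-1.49 ± 0.13) and Ap3d1 of the same complex higher (0.77 ± 0.19). Of 20 sorting nexin probe sets 17 differed by less than 0.5 in size, and the others were Snx3, Snx4 (-0.56 ± 0.09) and 1 Snx5 probe set (93597_at, 0.61 ± 0.06).

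**Figure D5:**
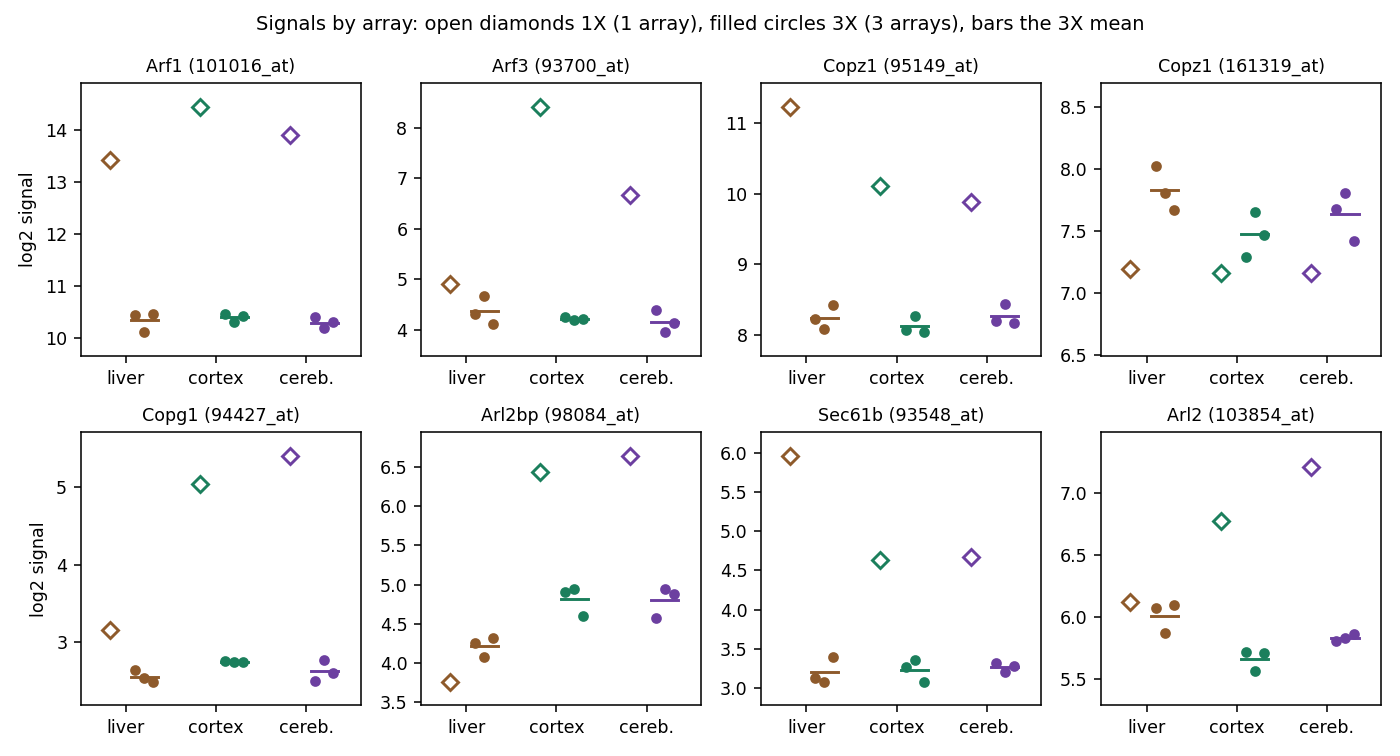
Signal (log2) on each array for 8 probe sets, by tissue: open diamonds are the 1X array, filled circles the 3X replicates and bars the 3X mean; vertical scales differ between panels. Arf1 falls from 13.43 or more at 1X to 10.46 or less at 3X in every tissue, the 2 Copz1 probe sets move in opposite directions, and the 1X diamonds of Arf3, Copg1, Arl2bp and Sec61b differ between tissues far more than their 3X circles.

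Some genes had probe sets that disagreed on the effect of the procedure. How often this happens over the whole array was not counted, so the count below is not read as particular to the members. Of the 37 genes with several probe sets, 7 (Ap2m1, Copz1, Rab1a, Sec23b, Snx5, Vps26c and Vps35) had 1 probe set called higher and another called lower at 3X. The median spread within a gene was 0.71, and the highest was 2.68, for Copz1. Ap2m1 was 0.63 ± 0.10 by 162442_r_at and -0.79 ± 0.08 by 93362_at, and Vps26c was 0.74 ± 0.17 by 162486_f_at and -0.96 ± 0.09 by 101104_at. With the mean of a gene's probe sets in their place, both genes had a difference under 0 that was not called (-0.078, adjusted p = 0.403, and -0.11, adjusted p = 0.467). In the comparison of liver with brain no gene had opposite calls and the median spread was 0.26, with Rab6a the widest at 2.01. Which transcript ends these probe sets read was not analysed here.

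The effect of the procedure also depended on the tissue for 21 of 169 members (12.4%, background 10.4%; limma moderated F over the 6 group means). With 1 array per tissue at 1X, the test assumes that its unmeasured spread equals that at 3X. The Arf GTPases gave 5 of 9 probe sets, the translocon and signal peptidase class 5 of 10, the Rab GTPases 5 of 44 and the COPI coat 2 of 10. Arf3 by 93700_at showed it most plainly. The 1X arrays read 4.90 for liver, 8.42 for cortex and 6.68 for cerebellum, a range of 3.52, and at 3X it was 4.31, 4.66 and 4.11 in liver, 4.24, 4.18 and 4.21 in cortex and 4.40, 3.95 and 4.13 in cerebellum, where the means spanned 0.20. Arf3 96587_at (1.82 at 1X and 0.17 at 3X), Copg1 94427_at (2.25 and 0.19) and Sec61b (1.33 and 0.06) likewise lost their range over tissues. Sec61a2 kept its order, with brain above liver at 1X (6.96 and 6.68 against 5.38) and at 3X, and the range shrank from 1.59 to 0.46.

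Genes that act with the members but were not chosen by name gave 98 measured genes in 6 lists. Each was read by its probe set with the highest mean signal, so these counts are not like those over all member probe sets. Among all probe sets, 12.3% were lower and 8.17% higher in liver, and 19.5% were lower and 37.5% higher at 3X. Clathrin and its partners had 7 of 14 genes lower in liver and none higher, led by Dnm1, the dynamin of neurons that pinches off vesicles, at 4.53 in liver, 10.86 in cortex and 10.84 in cerebellum (-6.32 ± 0.28, adjusted p = 7.58e-08). The others included the heavy chain Cltc (-0.98 ± 0.15), the uncoating chaperone Hspa8 (-1.41 ± 0.24), Eps15 (-1.25 ± 0.17) and Epn1 (-0.91 ± 0.09). Of 20 genes for cargo and tethers between endoplasmic reticulum and Golgi, 2 were higher and 2 lower in liver, with Kdelr2, a receptor that retrieves resident proteins, at 0.62 ± 0.10. Of 21 endosomal genes 2 were higher and 2 lower, including the SNAREs Vamp8 (1.39 ± 0.10) and Vti1b (-1.20 ± 0.16). Of 17 partners of the translocon 2 were higher and 3 lower, with Tram1 at 0.54 ± 0.08. The Rab cycle list had 1 of 10 lower and the Arf regulators 3 of 16, both with none higher. No gene of these lists was called between cortex and cerebellum. Between procedures, 11 of the 20 ER to Golgi genes and 10 of the 17 translocon partners were lower at 3X, with Ssr3 at -2.63 ± 0.22, against 4 and 3 higher, with Kdelr1 at 1.85 ± 0.16.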

How the data were processed

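Signals of MG_U74Av2 arrays were summarised per probe set and deposited by the authors as log2 values made with RMA, per the submitters' processing notes. Neither its version, nor its log base, nor whether all arrays entered a single run is stated there; base 2 was read from the highest value, 14.46, which a natural logarithm of a 16-bit signal (at most 11.09) cannot reach. Array medians were 3.45 to 3.48. Arrays have no count depth, and their number limits the precision.

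The 66 control probe sets of 12488 were left out. Of the 12422 others, 10833 carried 1 symbol, 396 several and 1193 none; 2 with several held a matching symbol and were not members. Gene identifiers of all 169 members were found in the RefSeq table, used for names. Tests used limma (version 3.58.1, R 4.3.3; linear models with contrasts and eBayes, two-sided), Benjamini-Hochberg adjusted over 12422 probe sets, and called at an adjusted p under 0.05. The fit of the tissues used the 9 3X arrays; the fit of 3X minus 1X used all 12 with tissue as a term. The code was tested on simulated arrays.

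Members, gene lists and tests were chosen with earlier results of these data known. Named with values were the 12 highest and 12 lowest called members between tissues, the 10 in each direction between procedures, the 6 with the largest F, the 4 largest between cortex and cerebellum, genes with opposite calls and the leading member of each role class, and members set beside them were chosen after their values were seen. A listed gene outside the name rule was represented by a single probe set, the one with the highest mean signal. Alternatives were quantile normalization, median centring, only probe sets above the median level, only those without a suffix (the mark of shared or less specific probes), a mean per symbol, trended and robust eBayes, the replicate number as a block, only the groups compared, all 12 arrays, tissues as units, and leaving out each array.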

Additional observations from a re-analysis of the deposited data

Results flagged for a closer look

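The effect of the procedure differed between tissues for 21 of 169 members by the moderated F test (limma, 6 group means). This share of 12.4% was near the 10.4% of all probe sets, so the count is not particular to the members. The 6 largest F values are given here with the 3X minus 1X differences for liver, cortex and cerebellum in that order. The COPI subunit Copg1 (94427_at) had an F of 87.1, with -0.60, -2.29 and -2.78. Arf3 had an F of 78.2 by 93700_at, with -0.54, -4.21 and -2.52, and of 64.6 by 96587_at, with 0.19, -1.53 and -0.56. Arl2bp had an F of 50.1, with 0.46, -1.62 and -1.84, and its partner Arl2 one of 29.1, with -0.11, -1.11 and -1.38. The translocon subunit Sec61b had an F of 26.9 and was the 1 among these 6 with its largest drop in liver, at -2.76, -1.40 and -1.40. For the other 5 the 1X signal was lowest in liver, and for all 6 the 3X signals of the tissues lay closer together than the 1X signals.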

How the results depend on the processing

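With only the groups compared in each fit, and a liver call required against cortex and against cerebellum separately, a stricter rule on the same arrays, 20 members were called between liver and brain in place of 41 (4 higher in place of 8, 16 lower in place of 33). A fit of the brain arrays alone called 2 between cortex and cerebellum in place of 0, both lower in cortex. With probe sets above the median level, a test of 92 members, the calls were 27 for liver against brain (5 higher), 63 in place of 107 for 3X minus 1X (25 in place of 41 higher, 38 in place of 66 lower) and 9 in place of 21 for the dependence on tissue. The count higher at 3X was 26 with a mean per symbol and 24 with the 3 tissues as units. Leaving out 1 array at a time gave 5 to 7 higher and 21 to 35 lower members for liver against brain and 0 to 1 for cortex against cerebellum, also 0 to 1 lower. With the replicate block, 45 members were called between liver and brain, 0 between the brain regions, 106 for 3X minus 1X and 20 for the dependence on tissue. The replicate numbers were not taken to pair the arrays, since 5 of 9 pairs with the same number, not all, had deviations correlated above 0.1 (r from -0.0991 to 0.342), against 4 of 18 other pairs. Replicate 3 stood apart: its 3 pairs across tissues had r of 0.294 to 0.342, a hint from the data that these arrays share something. Its pairs with other numbers had r of at most 0.0788. That is no second sign, since deviations from the mean of 3 replicates cancel within each tissue. The difference of Arl2 between liver and brain turned to -0.020 (adjusted p = 0.948) in a model of all 12 arrays, and the 3X minus 1X differences of Vps26c (162486_f_at) and Ap2m1 (162442_r_at) turned to -0.11 and -0.078 with a mean per symbol. The cause of these shifts was not tested, apart from the fewer probe sets or arrays, or the stricter rule, that an alternative holds by construction.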
